A study of Mus musculus with 13 samples.

Results

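Timm and Tomm genes encode the mitochondrial protein import translocases, and 27 of the 54232 rows of the count table carry such a symbol. Members were every row whose Ensembl ID maps to a symbol that starts with Timm or Tomm, leaving out pseudogene symbols with "-ps", of which the table held 0. The choice used names and no measured value. Of the 27 members, 22 had enough counts to be tested and 5 did not.

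Most mitochondrial proteins are made in the cytosol from nuclear genes and are imported. The translocase of the outer membrane (TOM) is the common entry gate. Small TIM chaperones carry hydrophobic proteins across the intermembrane space, the TIM22 complex inserts metabolite carriers into the inner membrane, and the TIM23 complex draws in proteins with a presequence. A fully grown oocyte holds a very large store of mitochondria that the embryo inherits. Its genome is silent during meiotic maturation, so mRNA levels then change mainly through decay. Poly(A) tails change as well, and the part of tail changes in the values below was not tested.

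RNA-seq libraries were made from 13 pools, with 25 mouse oocytes or eggs in each, to ask what loss of the long noncoding RNA Sirena1 does to the maternal transcriptome. Germinal vesicle (GV) oocytes are fully grown cells held in meiotic arrest, here collected in M2 medium with 0.2 mM IBMX, and metaphase II (MII) eggs are mature eggs, here collected 12 to 14 h after the hCG injection. The 4 groups were WT GV oocytes (n = 3), Sirena1 Null GV oocytes (n = 3), WT MII eggs (n = 3) and Sirena1 Null MII eggs (n = 4). Null animals carry a Cas9-made deletion of the Sirena1 promoter and came from heterozygotes bred to C57BL/6NCrl. The strain is labelled C57BL6/J for every sample, while the collection protocol names C57Bl6/J or C57BL/6NCrl for superovulated females, so the strain of each group cannot be told from the labels. How many females gave each pool, and how many founders stand behind the Null line, is not given in the sources used here. Nothing says that pools came from separate animals, so p-values measure only the spread between these samples, which may be technical.

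Library totals ran from 30867614 to 41285507 counts, so 3 counts correspond to between 0.0727 and 0.0972 CPM in a library (CPM is a gene's count scaled to the size of its library). Levels below are CPM scaled with edgeR's TMM factors, and each is relative to the other RNA of its library, because no spike-in count stands in the table. In pooled cells, fewer cells that hold an RNA and less of that RNA in each cell cannot be told apart. Sirena1, listed as C86187, averaged 3004 and 4517 CPM in WT GV oocytes and MII eggs against 24.8 and 41.3 CPM in Null ones. All 12 oocyte markers were detected in every library. The 22 cumulus and granulosa markers summed to between 154 and 188 CPM in 11 libraries, and to 743 and 329 CPM in Null GV replicates 2 and 3. Between 8 and 10 of these markers were at 0 in the WT MII libraries and between 2 and 9 in the Null MII libraries, against at most 3 in any GV library. In WT their sum ran from 159 to 188 CPM in GV oocytes and from 161 to 167 CPM in eggs. Most of that sum came from Nr5a2, Esr2 and Cyp19a1, which were counted in every library. The other markers did not move alike with stage. Fshr stood at 1.30, 0.45 and 0.42 CPM in WT GV libraries and at 1.16, 1.69 and 1.62 CPM in WT egg libraries. Has2 stood at 0.72, 1.30 and 1.15 CPM in WT GV libraries and at 1.69, 1.76 and 1.08 CPM in WT egg libraries. Inha, Inhbb and Gja1 were lower in eggs. Inha, a subunit of inhibin, had 123, 125 and 49 counts in the WT GV libraries and 71 in Null GV replicate 1, and 0 in every WT egg library. The Null egg libraries had 5, 0, 0 and 44 counts of it. Inhbb and Gja1 had at least 47 counts in every GV library, at most 2 in 6 egg libraries, and 9 and 58 in Null MII replicate 4. The part of cumulus RNA in the stage differences below was not tested. On the first principal component, which held 73.1% of the variance, Null MII replicate 4 lay at 27.8 and the other 6 MII libraries between 44.7 and 58.6. Null GV replicates 2 and 3 lay at -73.8 and -64.1, and the other 4 GV libraries between -53.2 and -49.4.

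Promoter letters are shown for 2 of the 3 tested pairs of related members whose balance differed between stages, Timm8a1 with Timm8a2 and Timm17a with Timm17b. Each line gives the 120 bases before the RefSeq start site, 5′ to 3′ on the gene's strand in build GRCm38.p6, and capitals mark CCGGAAG or its complement CTTCCGG, the core letters bound by ETS factors.
Timm8a1, chrX:134541671-134541790, minus strand: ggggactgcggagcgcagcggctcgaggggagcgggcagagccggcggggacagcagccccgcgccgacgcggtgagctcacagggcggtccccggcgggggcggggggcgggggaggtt
Timm8a2, chr14:122034554-122034673, plus strand: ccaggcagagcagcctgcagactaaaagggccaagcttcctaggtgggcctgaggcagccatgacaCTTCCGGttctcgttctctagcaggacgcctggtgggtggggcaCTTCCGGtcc
Timm17a, chr1:135313738-135313857, minus strand: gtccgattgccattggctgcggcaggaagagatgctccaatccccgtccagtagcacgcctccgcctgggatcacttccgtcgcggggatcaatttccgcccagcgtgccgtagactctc
Timm17b, chrX:7899216-7899335, plus strand: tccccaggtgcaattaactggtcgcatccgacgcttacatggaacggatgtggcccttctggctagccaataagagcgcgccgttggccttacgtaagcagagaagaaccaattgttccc
The Timm8a2 stretch lies inside the gene's annotated span, and each of the other 3 ends where the span begins. The Timm8a1 stretch holds 81.7% G and C with 17 CG steps, and the Timm8a2 stretch 62.5% with 4. The Timm8a2 stretch has the ETS letters at 2 places, and the other 3 stretches have none. Among RefSeq windows from 250 bases before to 50 after the start, 25 windows of 23 members were matched. Only the 250 bases before the start were searched for letters. The ETS letters, on either strand, stood in 10 of these 25 (40.0%), in Timm10, Timm23, Timm29, Timm8a2, Timm8b, Timmdc1, Tomm22, Tomm34 and Tomm70a, against 8.98% of 21262 windows of protein-coding genes. The NRF1 letters GCGCATGC were found in 1 member window (Timm13), or 4.0% against 2.93%. The CRE letters TGACGTCA were in 0 member windows against 1.92%, and the TATA letters TATAAA in 2 (Timm13 and Tomm5), or 8.0% against 11.6%. Of the 9 members with the ETS letters, 6 were lower in WT eggs than in WT GV oocytes (Timm10, Timm29, Timm8b, Timmdc1, Tomm22 and Tomm70a). Another 2 were higher (Timm8a2 and Tomm34) and 1 did not pass (Timm23). Over all 22 tested members 16 were lower and 3 higher, and over all genes 22.8% and 19.9%. A match describes letters only.

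Relative to the other RNA of the library, most members were lower in MII eggs than in GV oocytes, in both genotypes, and a few were higher. In WT, 19 of the 22 tested members passed the test between MII eggs and GV oocytes (edgeR's quasi-likelihood test, adjusted p under 0.05 over all 20143 genes tested), 16 lower and 3 higher. Of all genes tested, 42.7% passed, 22.8% lower and 19.9% higher. In Null, 18 of 22 passed, 14 lower and 4 higher, against 49.0% of all genes, 26.9% lower and 22.1% higher. The median log2 fold change of the tested members was -0.66 in WT and -0.63 in Null, beside 0.01 and -0.05 over all genes. The Null median was -0.86 with Null GV replicates 2 and 3 left out, a setting that leaves 1 Null GV library. It was -1.23, over 23 tested members, with Null MII replicate 4 left out as well. The GV and MII libraries did not overlap for 20 of the 22 members in WT, against 58.3% of all genes, and for 16 of 22 in Null, against 46.4%. The summed counts of all members took 0.0671% ± 0.00217 (SD, n = 3) of the library in WT GV oocytes, 0.0672% ± 0.00363 (SD, n = 3) in Null GV oocytes, 0.0394% ± 0.000495 (SD, n = 3) in WT MII eggs and 0.0420% ± 0.00255 (SD, n = 4) in Null MII eggs.

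**Figure D1:**
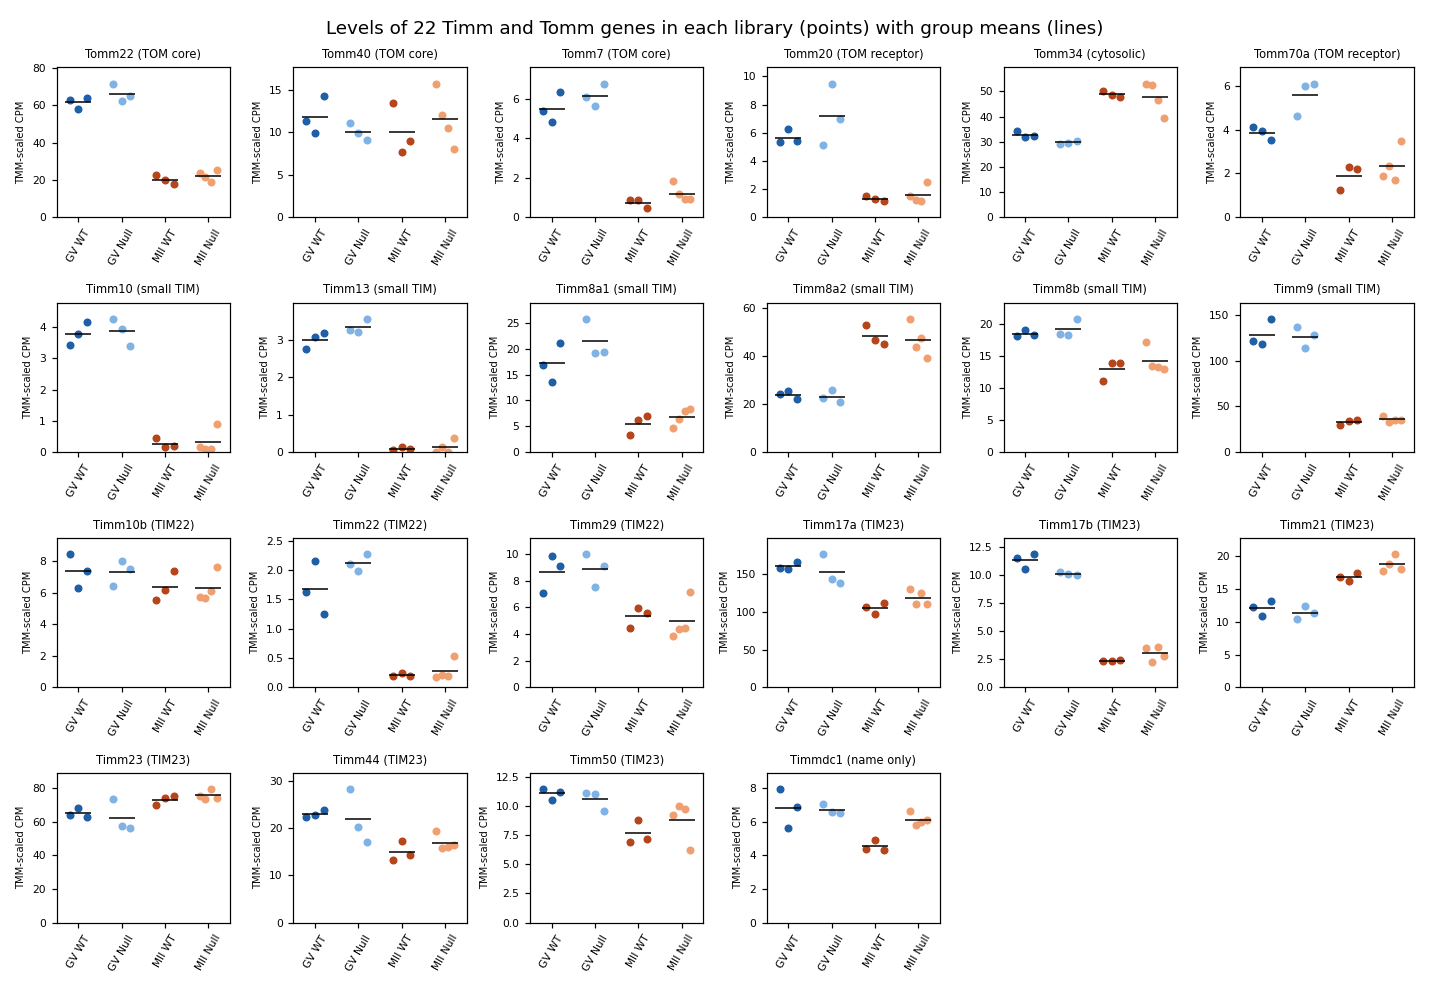
TMM-scaled CPM (y axis, linear, from 0) of the 22 tested Timm and Tomm genes in each of the 13 libraries (points, by group on the x axis), with group means as lines and the role of each gene in brackets. The MII points of Timm9, Tomm22, Timm13, Timm10 and Timm22 all lie below the GV points, those of Timm8a2, Tomm34 and Timm21 above them, and those of Tomm40 and Timm10b overlap with them.

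The outer membrane gate divided by subunit. Tomm22 (chr15:79670868-79672862), the central receptor that ties the TOM complex together, stood at 62.9, 57.9 and 63.7 CPM in WT GV oocytes, 71.6, 62.2 and 64.9 in Null GV oocytes, 22.3, 19.8 and 17.7 in WT MII eggs, and 23.8, 21.5, 18.8 and 25.1 in Null MII eggs. All MII libraries lay far below all GV libraries, in both genotypes. The change was -1.63 ± 0.11 (adjusted p = 2.96e-09) in WT and -1.57 ± 0.10 (adjusted p = 9.43e-10) in Null on the log2 scale (± SE). Tomm7, a small subunit that acts in the assembly and turnover of the complex, stood at 5.39, 4.81 and 6.33 CPM in WT GV oocytes, 6.09, 5.62 and 6.78 in Null GV oocytes, 0.894, 0.861 and 0.476 in WT MII eggs, and 1.81, 1.15, 0.921 and 0.901 in Null MII eggs. Its MII libraries were again all below its GV libraries, and the Null MII libraries were all above the WT ones. The change was -2.89 ± 0.28 (adjusted p = 1.63e-07) in WT and -2.35 ± 0.24 (adjusted p = 2.51e-07) in Null on the log2 scale (± SE). Tomm40, the channel itself, did not pass the test in either genotype, and its MII and GV libraries overlapped. It ranged from 9.99 to 14.3 CPM in WT GV oocytes, from 9.11 to 11.1 in Null GV oocytes, from 7.75 to 13.5 in WT MII eggs and from 8.11 to 15.8 in Null MII eggs. Its estimates were -0.24 ± 0.23 (adjusted p = 0.435) in WT and 0.21 ± 0.21 (adjusted p = 0.435) in Null on the log2 scale (± SE). The 95% intervals of these estimates ran from -0.72 to 0.25 in WT and from -0.24 to 0.67 in Null. The remaining gate subunits had too few counts to be tested. Tomm6 had 1 count in all 13 libraries together, and Tomm40l, a homolog of the channel, had between 0 and 3 counts in a library. Tomm5, another small subunit, had 2, 7 and 2 counts in the WT GV libraries, 3, 29 and 19 in the Null GV libraries and at most 2 in any MII library. How reads that match several places were counted is not given in the sources used here, so for Tomm6 and Tomm5 little RNA and reads lost in counting cannot be told apart. The 2 high Tomm5 libraries were the ones with raised cumulus markers, whose part in that difference was not tested.

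The receptors that read targeting signals on incoming proteins moved downwards, and the cytosolic cochaperone Tomm34 did not. Tomm20 (chr8:126930664-126945921), the receptor for presequences, stood at 5.33, 6.26 and 5.38 CPM in WT GV oocytes, 5.10, 9.49 and 6.95 in Null GV oocytes, 1.49, 1.27 and 1.14 in WT MII eggs, and 1.52, 1.22, 1.14 and 2.48 in Null MII eggs. Every MII library was below every GV library, and Null GV replicates 2 and 3 were the highest of all 13. The change was -2.12 ± 0.28 (adjusted p = 7.16e-06) in WT and -2.17 ± 0.25 (adjusted p = 1.09e-06) in Null on the log2 scale (± SE). With Null GV replicates 2 and 3 left out, the Null value was -1.67 (adjusted p = 0.000576). Tomm70a, the receptor that docks chaperone-bound carriers, stood at 4.12, 3.96 and 3.51 CPM in WT GV oocytes, 4.64, 6.02 and 6.12 in Null GV oocytes, 1.22, 2.31 and 2.19 in WT MII eggs, and 1.89, 2.34, 1.68 and 3.48 in Null MII eggs. The MII libraries were below the GV libraries, most narrowly in Null, where MII replicate 4 was the highest egg library. The change was -1.02 ± 0.27 (adjusted p = 0.00488) in WT and -1.25 ± 0.24 (adjusted p = 0.000305) in Null on the log2 scale (± SE). Tomm34 (chr2:164053538-164071178), which binds heat shock chaperones in the cytosol, stood at 34.3, 31.8 and 32.4 CPM in WT GV oocytes, 29.2, 29.6 and 30.4 in Null GV oocytes, 50.0, 48.5 and 48.0 in WT MII eggs, and 53.2, 52.4, 46.4 and 39.5 in Null MII eggs. Here every MII library was above every GV library. The change was 0.57 ± 0.10 (adjusted p = 0.000153) in WT and 0.69 ± 0.09 (adjusted p = 1.05e-05) in Null on the log2 scale (± SE). Tomm20l, a homolog of Tomm20, had 1 to 11 counts a library and was not tested.

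The small TIM chaperones held the largest falls among the members and also the largest rise. All 6 passed the test in both genotypes, 5 lower and 1 higher. Timm9 (chr12:71123172-71136708), which forms a ring with Timm10 that shields carrier proteins, stood at 121, 118 and 146 CPM in WT GV oocytes, 137, 114 and 128 in Null GV oocytes, 30.2, 34.4 and 35.0 in WT MII eggs, and 39.5, 33.5, 35.6 and 35.6 in Null MII eggs. Pooled over libraries, the eggs held 25.9% of the oocyte level in WT and 28.7% in Null, with no overlap between libraries. The change was -1.95 ± 0.10 (adjusted p = 8.19e-11) in WT and -1.81 ± 0.09 (adjusted p = 4.83e-11) in Null on the log2 scale (± SE). Timm10 (chr2:84827021-84830213), its partner in that ring, stood at 3.42, 3.78 and 4.16 CPM in WT GV oocytes, 4.27, 3.95 and 3.40 in Null GV oocytes, 0.463, 0.172 and 0.190 in WT MII eggs, and 0.184, 0.105, 0.0953 and 0.901 in Null MII eggs. It was low in every egg library, least so in Null MII replicate 4. The change was -3.76 ± 0.58 (adjusted p = 0.000104) in WT and -3.58 ± 0.50 (adjusted p = 3.77e-05) in Null on the log2 scale (± SE). Pooled over libraries, Timm10 had 25 counts in WT MII eggs and 471 in WT GV oocytes, a level of 7.30% of the GV level (exact 95% interval 4.67% to 10.9%), and 8.28% (5.89% to 11.4%) in Null. Without Null MII replicate 4 the Null log2 fold change was -4.87.

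Timm13 (chr10:80899450-80900969), which forms another ring with the Timm8 proteins, stood at 2.75, 3.08 and 3.19 CPM in WT GV oocytes, 3.26, 3.22 and 3.57 in Null GV oocytes, 0.0662, 0.138 and 0.0952 in WT MII eggs, and 0, 0.140, 0 and 0.373 in Null MII eggs. It was close to 0 in all eggs and absent from the counts of Null MII replicates 1 and 3, where 0 counts allow up to 0.0739 and 0.0862 CPM before TMM scaling. The fit gave -4.87 ± 0.66 (adjusted p = 2.36e-05) in WT and -4.72 ± 0.56 (adjusted p = 5.38e-06) in Null on the log2 scale (± SE). A fitted change at such counts depends on the prior count, so the pooled counts are given as well. These were 9 against 374 in WT, or 3.31% of the GV level (exact 95% interval 1.50% to 6.35%), and 16 against 386 in Null, or 3.67% (2.08% to 6.04%). These intervals cover counting error only. Without Null MII replicate 4 the Null log2 fold change was -6.25. With Null GV replicates 2 and 3 left out, the Null log2 fold changes were -4.68 for Timm13 and -3.71 for Timm10. The GV library that remained, Null GV replicate 1, still held cumulus transcripts, with 71 counts of Inha.

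The 3 Timm8 genes went separate ways. Timm8a1 (chrX:134537256-134541670), the counterpart of the human deafness dystonia gene, stood at 16.9, 13.5 and 21.0 CPM in WT GV oocytes, 25.8, 19.1 and 19.4 in Null GV oocytes, 3.41, 6.17 and 7.08 in WT MII eggs, and 4.64, 6.47, 7.91 and 8.42 in Null MII eggs. All eggs were below all GV oocytes, and Null GV replicate 1 was the highest library. The change was -1.63 ± 0.27 (adjusted p = 0.000207) in WT and -1.65 ± 0.24 (adjusted p = 5.84e-05) in Null on the log2 scale (± SE). Timm8a2 (chr14:122027677-122038422), a close copy of Timm8a1 at another locus, stood at 24.1, 25.4 and 22.1 CPM in WT GV oocytes, 22.5, 26.1 and 20.7 in Null GV oocytes, 52.7, 46.6 and 45.2 in WT MII eggs, and 55.6, 43.9, 47.5 and 39.2 in Null MII eggs. Every egg library was above every GV library. The change was 1.01 ± 0.12 (adjusted p = 2.43e-06) in WT and 1.01 ± 0.12 (adjusted p = 1.15e-06) in Null on the log2 scale (± SE). Timm8b (chr9:50603901-50605320) stood at 18.1, 19.0 and 18.3 CPM in WT GV oocytes, 18.5, 18.3 and 20.9 in Null GV oocytes, 11.1, 14.0 and 14.0 in WT MII eggs, and 17.2, 13.5, 13.4 and 13.0 in Null MII eggs. The groups did not overlap between stages, although Null MII replicate 1 came near the GV level. The change was -0.50 ± 0.13 (adjusted p = 0.00351) in WT and -0.43 ± 0.12 (adjusted p = 0.00554) in Null on the log2 scale (± SE). With Null GV replicates 2 and 3 left out, Timm8b no longer passed in Null, at -0.37 (adjusted p = 0.138). How reads that match both Timm8a1 and Timm8a2 were counted is not given in the sources used here, so the split between these copies is uncertain. Timm8a2 also shares 2817 bases of its span with the noncoding gene Gm52103, and reads of the 2 cannot be told apart where strand was not used.

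**Figure D2:**
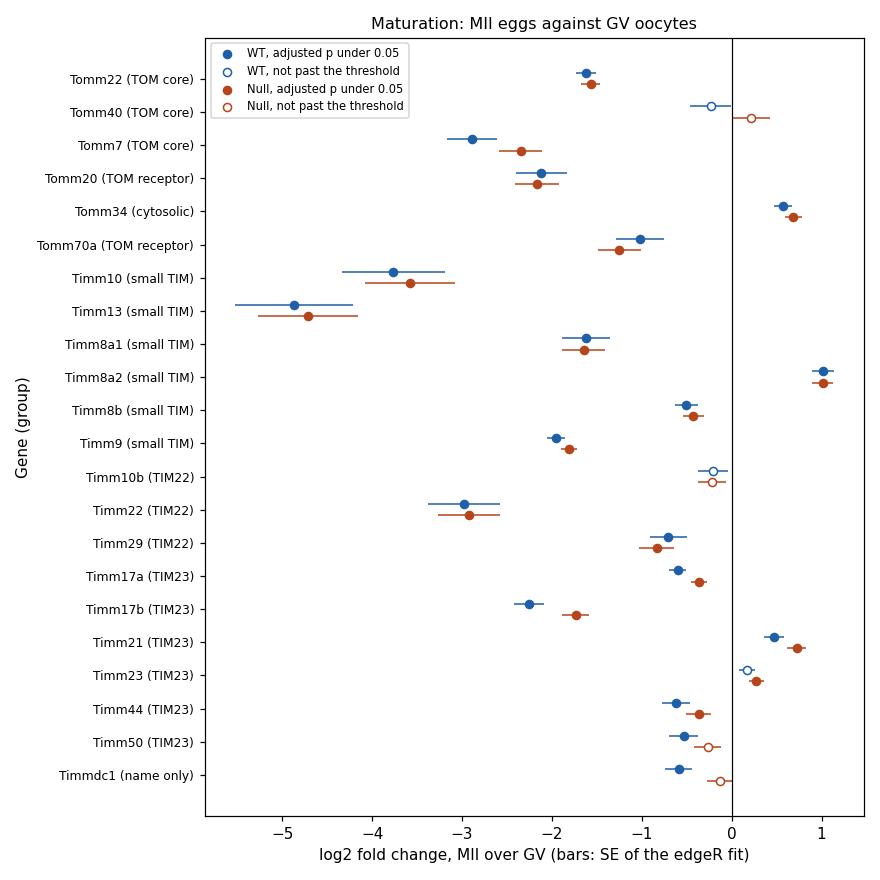
Log2 fold change of MII over GV (x axis, edgeR, bars are SE) for the 22 tested members, grouped by role on the y axis, in WT and in Null, with filled points for members past adjusted p 0.05. Timm13, Timm10, Timm22 and Tomm7 lie farthest to the left, and Timm8a2, Tomm34 and Timm21 lie to the right of 0 in both genotypes.

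In the TIM22 complex the channel fell most. Timm22 (chr11:76406925-76416313), the carrier channel, stood at 1.63, 2.15 and 1.25 CPM in WT GV oocytes, 2.11, 1.99 and 2.28 in Null GV oocytes, 0.199, 0.241 and 0.190 in WT MII eggs, and 0.184, 0.210, 0.191 and 0.528 in Null MII eggs. All egg libraries were well below all GV libraries, with Null MII replicate 4 the highest among the eggs. The change was -2.98 ± 0.40 (adjusted p = 9.02e-06) in WT and -2.92 ± 0.34 (adjusted p = 1.61e-06) in Null on the log2 scale (± SE). In pooled counts this was 19 against 209 in WT, or 12.5% of the GV level (exact 95% interval 7.37% to 20.01%), and 36 against 245 in Null, or 13.0% (8.90% to 18.5%). Timm29, a subunit that joins the complex to TOM, stood at 7.09, 9.82 and 9.07 CPM in WT GV oocytes, 10.0, 7.56 and 9.06 in Null GV oocytes, 4.44, 5.96 and 5.55 in WT MII eggs, and 3.88, 4.37, 4.48 and 7.17 in Null MII eggs. MII libraries lay below GV libraries, only just so for Null MII replicate 4. The change was -0.70 ± 0.21 (adjusted p = 0.0111) in WT and -0.84 ± 0.19 (adjusted p = 0.00156) in Null on the log2 scale (± SE). The WT call was lost when single libraries were left out, with an adjusted p of 0.0563 without WT GV replicate 2 and 0.0622 without WT MII replicate 1. Timm10b, a small TIM bound to this complex, did not pass in either genotype. Its levels overlapped between stages, from 6.26 to 8.46 CPM over all GV libraries and from 5.56 to 7.64 over all egg libraries. Its estimates were -0.21 ± 0.17 (adjusted p = 0.331) in WT and -0.22 ± 0.16 (adjusted p = 0.271) in Null on the log2 scale (± SE).

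The TIM23 complex, which serves proteins with a presequence, had its twin subunits Timm17a and Timm17b both lower in eggs. Timm17a (chr1:135301535-135313737) stood at 157, 156 and 166 CPM in WT GV oocytes, 177, 143 and 138 in Null GV oocytes, 107, 97.7 and 112 in WT MII eggs, and 131, 109.8, 124 and 111 in Null MII eggs. Eggs were below GV oocytes without overlap. The change was -0.60 ± 0.10 (adjusted p = 5.65e-05) in WT and -0.36 ± 0.09 (adjusted p = 0.00237) in Null on the log2 scale (± SE). Timm17b (chrX:7899336-7907652) stood at 11.5, 10.6 and 11.9 CPM in WT GV oocytes, 10.3, 10.1 and 9.97 in Null GV oocytes, 2.35, 2.34 and 2.41 in WT MII eggs, and 3.51, 2.27, 3.56 and 2.76 in Null MII eggs. The fall was steep, and the WT egg libraries lay closer together than the Null ones. It amounted to -2.26 ± 0.17 (adjusted p = 6.20e-09) in WT and -1.74 ± 0.15 (adjusted p = 2.99e-08) in Null on the log2 scale (± SE). Timm23 (chr14:32180166-32201891), the channel-forming subunit beside Timm17, stood at 64.3, 68.3 and 63.0 CPM in WT GV oocytes, 73.9, 57.5 and 56.5 in Null GV oocytes, 70.3, 74.2 and 75.5 in WT MII eggs, and 75.5, 73.8, 79.7 and 74.3 in Null MII eggs. The WT eggs were above the WT GV oocytes, and in Null the GV range reached into that of the eggs. The estimates were 0.17 ± 0.09 (adjusted p = 0.155) in WT and 0.27 ± 0.09 (adjusted p = 0.0144) in Null on the log2 scale (± SE). Timm23 passed in Null only, and the difference between genotypes was not past the threshold (log2 difference 0.11, adjusted p = 0.999). The Null call was lost without Null GV replicate 2 (adjusted p = 0.0853), Null GV replicate 3 (0.0929) or Null MII replicate 3 (0.0622). With Null GV replicates 2 and 3 both left out the value was 0.04 (adjusted p = 0.825).

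Timm21, which links TIM23 to TOM and the respiratory chain, stood at 12.3, 10.8 and 13.2 CPM in WT GV oocytes, 10.4, 12.4 and 11.3 in Null GV oocytes, 16.8, 16.2 and 17.4 in WT MII eggs, and 17.7, 18.8, 20.3 and 18.1 in Null MII eggs. Every egg library was above every GV library. The change was 0.47 ± 0.11 (adjusted p = 0.00215) in WT and 0.72 ± 0.11 (adjusted p = 1.87e-05) in Null on the log2 scale (± SE). The whole span of Timm21 lies within that of Fbxo15, so without strand their reads cannot be told apart. Of the 27 members, 15 share bases of their span with another gene, and the same limit holds for reads there. Among them are Timm10b (4973 bases with Dnhd1), Tomm20 (4214 with a noncoding gene), Timm50 (2207 with Gm51445) and Timmdc1 (1977 with Gm15953). Timm50, the receptor that takes presequences from TOM, stood at 11.5, 10.6 and 11.3 CPM in WT GV oocytes, 11.1, 11.1 and 9.61 in Null GV oocytes, 6.95, 8.85 and 7.20 in WT MII eggs, and 9.23, 10.0, 9.78 and 6.27 in Null MII eggs. In WT the eggs were below the GV oocytes, and in Null the ranges overlapped. The estimates were -0.54 ± 0.16 (adjusted p = 0.0119) in WT and -0.27 ± 0.15 (adjusted p = 0.152) in Null on the log2 scale (± SE). The WT call was lost without WT MII replicate 1 (adjusted p = 0.0566) or WT MII replicate 3 (0.0502). Timm44, which anchors the import motor at the channel, stood at 22.4, 22.8 and 23.8 CPM in WT GV oocytes, 28.3, 20.1 and 17.1 in Null GV oocytes, 13.3, 17.3 and 14.3 in WT MII eggs, and 19.4, 15.7, 16.1 and 16.5 in Null MII eggs. WT eggs were below WT GV oocytes, and in Null the groups overlapped, with Null GV replicate 1 the highest library. The change was -0.62 ± 0.15 (adjusted p = 0.00307) in WT and -0.37 ± 0.14 (adjusted p = 0.0388) in Null on the log2 scale (± SE). Without Null GV replicate 1 the Null value was -0.13 (adjusted p = 0.413), and the call was also lost without Null MII replicate 2 (adjusted p = 0.0762), replicate 3 (0.07) or replicate 4 (0.0537).

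Timmdc1 carries the name of the family and is known as an assembly factor of respiratory complex I, not as an import subunit. It stood at 7.97, 5.66 and 6.88 CPM in WT GV oocytes, 7.09, 6.56 and 6.53 in Null GV oocytes, 4.40, 4.89 and 4.35 in WT MII eggs, and 6.63, 5.81, 5.97 and 6.12 in Null MII eggs. In WT the eggs were below the GV oocytes, and in Null the ranges overlapped. The estimates were -0.59 ± 0.15 (adjusted p = 0.00412) in WT and -0.13 ± 0.14 (adjusted p = 0.451) in Null on the log2 scale (± SE). Tomm6os, a noncoding gene beside Tomm6, had 0 to 2 counts a library and was not tested.

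Because 2 related genes are measured in the same library, the ratio of their counts does not depend on library scaling. Of 5 pairs of related members, 3 had at least 3 counts of both genes in every library and were tested, with an exact two-sided permutation of stage within genotype over 13 libraries (700 arrangements, smallest possible p 0.00143). The ratio of Timm17a to Timm17b was 14.1 ± 0.606 (SD, n = 3) in WT GV oocytes, 15.1 ± 1.80 (SD, n = 3) in Null GV oocytes, 44.5 ± 2.46 (SD, n = 3) in WT MII eggs and 40.1 ± 5.82 (SD, n = 4) in Null MII eggs. This was a 2.87-fold rise in eggs (exact permutation p = 0.00143, adjusted over 3 pairs 0.00214), with all 7 egg libraries above all 6 GV libraries. The ratio of Timm8a1 to Timm8a2 was 0.728 ± 0.210 (SD, n = 3) in WT GV oocytes, 0.940 ± 0.208 (SD, n = 3) in Null GV oocytes, 0.118 ± 0.0477 (SD, n = 3) in WT MII eggs and 0.153 ± 0.0543 (SD, n = 4) in Null MII eggs. It was 6.28-fold lower in eggs (exact permutation p = 0.00143, adjusted 0.00214), again with no overlap. Timm8a1 to Timm8b went from 0.932 ± 0.220 (SD, n = 3) and 1.13 ± 0.243 (SD, n = 3) in WT and Null GV oocytes to 0.418 ± 0.102 (SD, n = 3) and 0.497 ± 0.168 (SD, n = 4) in the eggs, 2.27-fold lower (exact permutation p = 0.00286, adjusted 0.00286). Ratios of counts between genes also depend on gene length, so only their change between stages is read here. The pairs were chosen with earlier results of these data known.

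**Figure D3:**
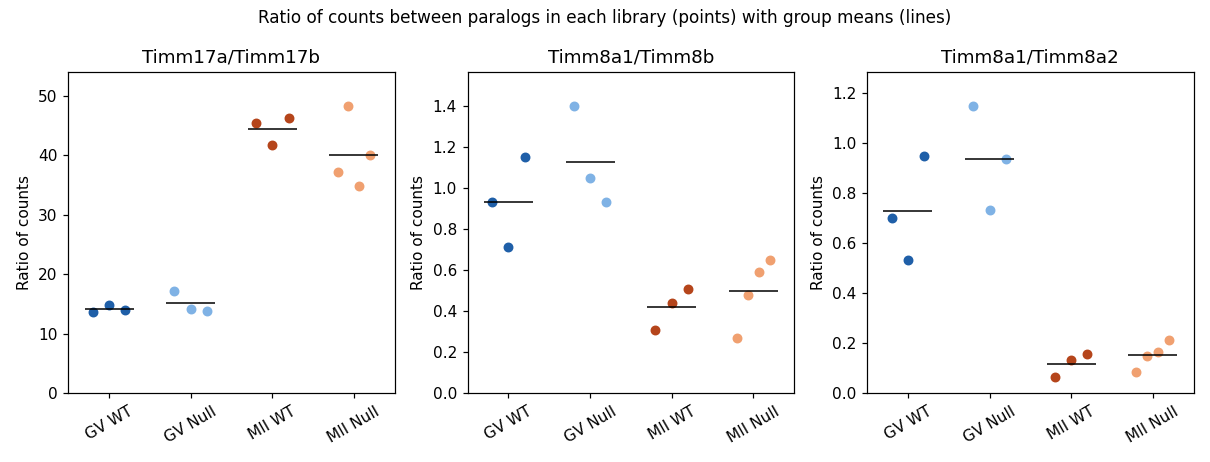
Ratio of raw counts (y axis, linear, from 0) between related members in each library (points, by group on the x axis) with group means as lines. Timm17a to Timm17b lies near 14.1 and 15.1 in GV oocytes and between 34.9 and 48.2 in the egg libraries, and both Timm8a1 ratios are lower in every egg library than in every GV library.

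No member passed the test between Null and WT. In GV oocytes 0 of 22 passed in edgeR's quasi-likelihood test, against 0.0546% of all genes, and DESeq2 called 0 as well. At an unadjusted p under 0.05, reached by 6.66% of all genes, there was 1 member, Tomm70a (log2 fold change 0.53 ± 0.25 SE, unadjusted p = 0.0487, adjusted p = 0.747 in edgeR's test). Its Null GV libraries stood at 4.64, 6.02 and 6.12 CPM and its WT ones at 4.12, 3.96 and 3.51 CPM, with no overlap. Replicates 2 and 3, the higher Null libraries, were those with raised cumulus markers. Without them the value was 0.26, from the 1 Null GV library left. Libraries did not overlap for 4 of 22 members (Timm13 and Tomm70a above, Timm17b and Tomm34 below), against 12.7% of all genes. Signs were mixed, with 10 positive and 12 negative, and the median was -0.02 beside 0.02 over all genes. With Null GV replicates 2 and 3 left out there were 13 positive and 9 negative, and the median was 0.10 beside 0.00. Values in that setting rest on Null GV replicate 1 alone, the library with the largest summed share of members (0.0713%). The 6 tested members of the TIM23 complex had values from -0.16 to -0.06 with all libraries, none of them past the test. Without those 2 libraries Timm44 was at 0.30, Timm23 at 0.18 and Timm17a at 0.14. Timm17b, Timm21 and Timm50 stayed negative under every alternative, with highest values of -0.13, -0.03 and -0.001. With all libraries the 95% intervals ran from -0.25 to 0.14 for Timm23, from -0.27 to 0.13 for Timm17a and from -0.23 to 0.18 for Timm9. For Timm13 the interval was wide, from -0.80 to 1.11.

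In MII eggs 0 of 22 passed as well, against 0.0546% of all genes, with 0 in DESeq2 and 3 at an unadjusted p under 0.05, which 6.35% of all genes reached. These 3 were Timmdc1 (log2 fold change 0.43, 95% interval 0.13 to 0.74, adjusted p = 0.635), Tomm7 (0.70, 0.11 to 1.29, adjusted p = 0.727) and Timm17b (0.36, 0.02 to 0.70, adjusted p = 0.772), all in edgeR's test. For Timmdc1 the Null eggs stood at 6.63, 5.81, 5.97 and 6.12 CPM and the WT eggs at 4.40, 4.89 and 4.35 CPM, so all Null libraries were above all WT libraries. Such a gap between groups was seen in 3 of 22 members (Timmdc1, Tomm7 and Timm21), against 6.06% of all genes. For Tomm7 it was narrow, with 0.901 CPM (29 counts) in Null MII replicate 4 and 0.894 CPM (27 counts) in WT MII replicate 1. Values were positive for 18 of 22 members, or 81.8%, against 53.2% of all genes, with a median of 0.19 beside 0.01 over all genes. Without Null MII replicate 4 there were 17 positive and the median was 0.13 beside 0.03, with Timm10 at -1.03, Timm13 at -1.18 and Timm22 at -0.09. Members share libraries and are not independent, so this count is a description. The 6 members of the TIM23 complex all had positive values, from 0.05 to 0.36. For Timm9 the estimate was 0.12 (-0.08 to 0.32), for Tomm22 0.16 (-0.06 to 0.39) and for Timm8a2 -0.05 (-0.28 to 0.19).

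The genotype effects in the 2 stages were also tested against each other. In that comparison 0 of 22 members passed in edgeR's test, against 0.00496% of all genes, and 0 in DESeq2. At an unadjusted p under 0.05, reached by 3.38% of all genes, there were 2, Timm17b (log2 difference 0.52, unadjusted p = 0.0308) and Timmdc1 (0.46, unadjusted p = 0.0401), both with an adjusted p of 0.999 in edgeR's test. The same contrast tests whether the maturation change differed by genotype, so for Timm17b, Timmdc1 and the members called in only 1 genotype no such difference was shown.

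**Figure D4:**
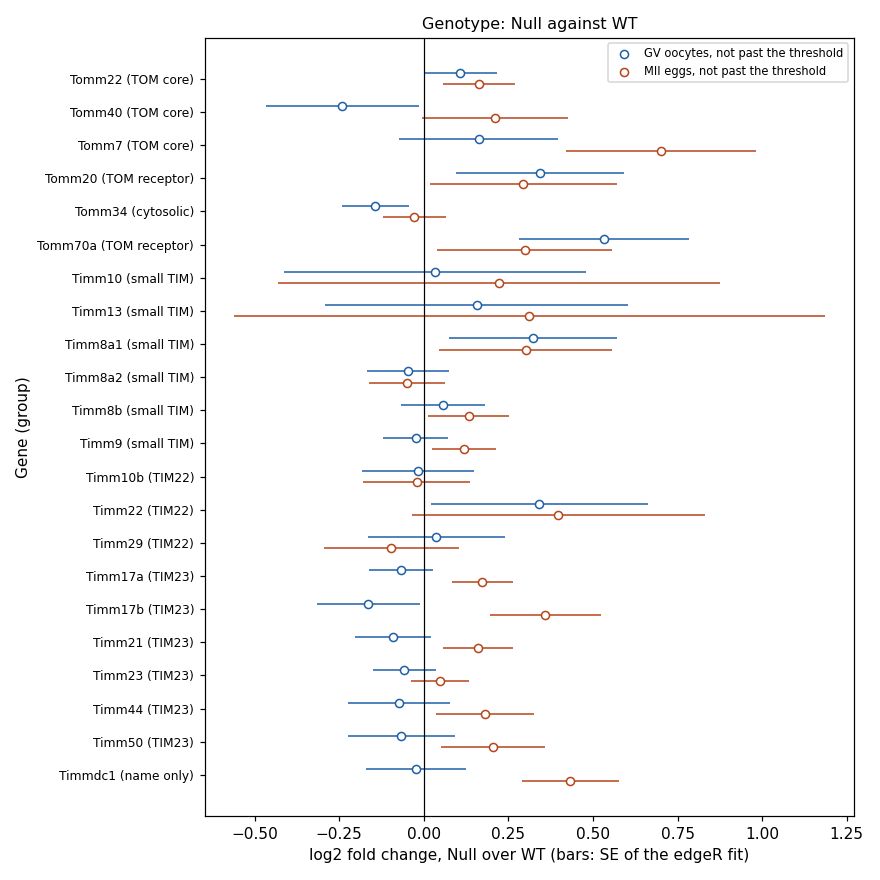
Log2 fold change of Null over WT (x axis, edgeR, bars are SE) for the 22 tested members (y axis), in GV oocytes and in MII eggs. Open points mean that no member passed adjusted p 0.05, and 18 of the 22 egg values and 10 of the 22 oocyte values lie to the right of 0.

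A list of 24 other genes of the import pathway, all tested, was read beside the members. It holds the TIM23 motor, the sorting and assembly machinery of the outer membrane, the disulfide relay, the processing peptidases, the acylglycerol kinase subunit of TIM22 and insertases. In WT, 14 of 24 were lower in eggs, 2 higher (Agk and Xpnpep3) and 8 did not pass, against 22.8% of all genes lower and 19.9% higher. In Null, 14 were lower, 1 higher (Agk) and 9 did not pass, against 26.9% of all genes lower and 22.1% higher. The WT count of higher genes was 1 without WT GV replicate 1 or without WT MII replicate 3, and the Null count was 0 without Null GV replicates 2 and 3. The 4 with the smallest p in WT were Gfer, the sulfhydryl oxidase of the relay (-1.35 ± 0.11 SE, adjusted p = 1.23e-08), Pam16, a motor subunit (-2.12 ± 0.18, 8.91e-08), Mtch1, an outer membrane insertase (-1.07 ± 0.15, 1.12e-05), and Mtx2, a sorting and assembly subunit (-1.76 ± 0.23, 1.75e-05), all on the log2 scale. In Null they were Gfer (-1.25 ± 0.10, adjusted p = 8.51e-09), Pam16 (-2.32 ± 0.16, 8.55e-09), Mtx2 (-1.86 ± 0.21, 3.42e-06) and Immp2l, a peptidase of the inner membrane (-2.50 ± 0.36, 1.45e-05). Pam16 averaged 49.4 ± 6.79 CPM (SD, n = 3) in WT GV oocytes, 55.8 ± 3.99 CPM (SD, n = 3) in Null GV oocytes, 11.4 ± 0.702 CPM (SD, n = 3) in WT MII eggs and 11.1 ± 3.13 CPM (SD, n = 4) in Null MII eggs. Gfer averaged 43.5 ± 2.39 CPM (SD, n = 3) in WT GV oocytes, 45.0 ± 5.97 CPM (SD, n = 3) in Null GV oocytes, 17.1 ± 0.592 CPM (SD, n = 3) in WT MII eggs and 18.9 ± 1.54 CPM (SD, n = 4) in Null MII eggs. Both fell without overlap between stages. Between genotypes 0 of 24 passed in edgeR's test in either stage, against 0.0546% of all genes in each, and 0 in DESeq2. At an unadjusted p under 0.05 in edgeR's test there were 2 in GV oocytes, against 6.66% of all genes, and 3 in eggs, against 6.35%.

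**Figure D5:**
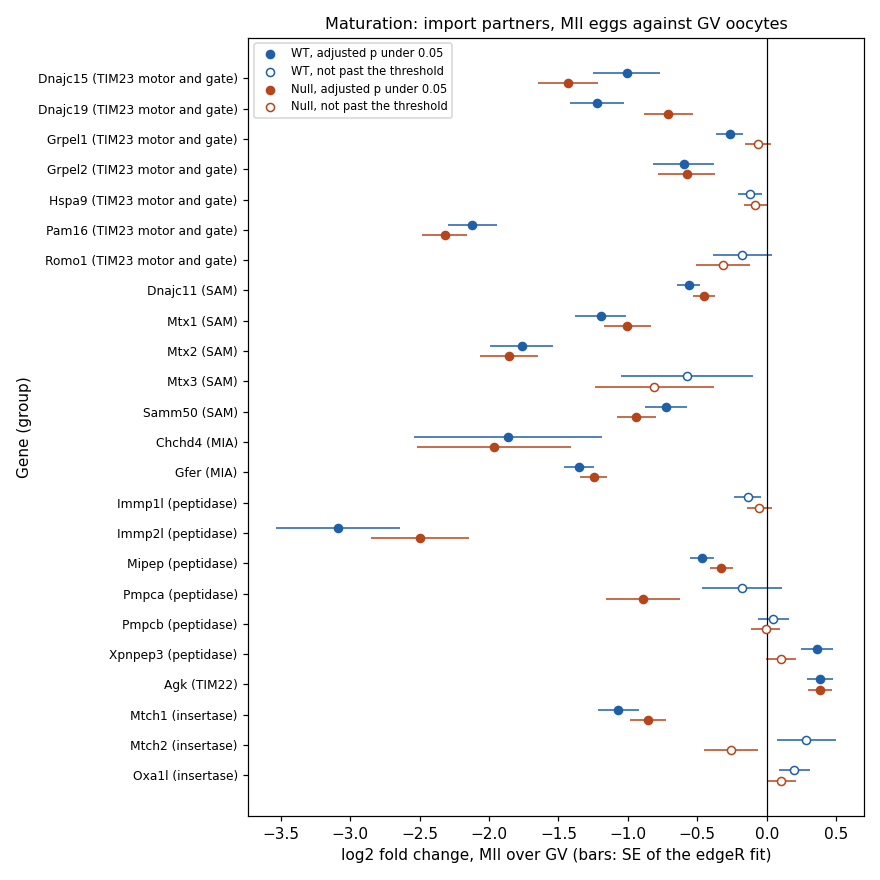
Log2 fold change of MII over GV (x axis, edgeR, bars are SE) for 24 other genes of the import pathway, by machinery on the y axis (SAM, sorting and assembly machinery; MIA, disulfide relay), in WT and in Null, with filled points for adjusted p under 0.05. Immp2l, at -3.09 in WT and -2.50 in Null, lies farthest to the left, and Agk is higher in both genotypes at 0.38.

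Start sites of 5 of 23 matched members (21.7%) lay within 500 bases of a start on the other strand, pointing away, against 7.53% of 17491 protein-coding genes. These pairs were Timm8b with Sdhd (52 bases apart), Timm10b with Arfip2 (29), Timm23 with Parg (58), Timm17b with Pqbp1 (67) and Timm9 with 2700049A03Rik (173). Sdhd, a subunit of respiratory complex II, had the largest change of these neighbours between WT stages, from 106.7 ± 1.43 CPM in GV oocytes to 17.1 ± 2.26 in eggs (SD, n = 3 each, log2 fold change -2.65), beside -0.50 for Timm8b. Pqbp1 fell by 1.36 on the log2 scale beside -2.26 for Timm17b. 2700049A03Rik rose by 0.42 while Timm9 fell by 1.95, and Parg, at -0.01, did not pass, like Timm23. Arfip2 was at -0.49 (adjusted p = 0.0183) beside -0.21 for Timm10b, which did not pass.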

How the data were processed

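Bulk RNA of 13 pools of 25 oocytes or eggs was sequenced with single reads of 65 nt. The authors deposited raw counts of reads per gene for 54232 Ensembl IDs, with no normalization. The submitters' processing notes list STAR 2.5.3a, bedtools 2.26.0 and build GRCm38.p6, while how reads were counted, with which strand setting and with which treatment of multimapping reads, is not stated in any label or header used. Symbols came from a table of names (54079 IDs matched, 153 did not). Samples were grouped by stage and genotype from the labels.

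Counts of all 13 libraries were fitted in 1 model of 4 groups with edgeR 4.0.16 (R 4.3.3), using filterByExpr by group (20143 genes), TMM scaling, glmQLFit (robust) and glmQLFTest. Tests were two-sided and adjusted by Benjamini-Hochberg over all genes tested in each of 5 comparisons, with a threshold of 0.05. Alternatives were RLE scaling, no filter, a filter of 5 CPM in 3 libraries, DESeq2 1.42.0, a replicate block, a fit of only the groups compared, and leaving out libraries. Members, lists and pairs were chosen with earlier results of these data known, and so was the leaving out of libraries rich in cumulus markers. Every member could be named, members past the threshold with a value in each library, and up to 4 partner genes with the smallest p in each comparison. Coordinates and promoters are from RefSeq for GRCm38.p6, and neighbouring genes were chosen by distance. The fit was tested on simulated data.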

Additional observations from a re-analysis of the deposited data

Results flagged for a closer look

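Within Null MII eggs, the group with 4 libraries, 26 values of members were checked for a library that stands apart from the other 3, and 4 did. The measure is the gap to the nearest library over the whole range, with a 95% critical value of 0.829, which chance passes in about 1 of 20 groups. Timm22 was 0.528 CPM in Null MII replicate 4, with the others between 0.184 and 0.21 CPM. Timm10 was 0.9007 CPM in the same library, with the others between 0.0953 and 0.184 CPM. That library also lay nearest to the GV oocytes on the first principal component, at 27.8, and its cumulus markers summed to 187 CPM against 155 to 172 CPM in the other 3. Their part in these values was not tested. Timm8b was 17.2 CPM in Null MII replicate 1, with the others between 12.95 and 13.5 CPM. The summed counts of all members took 0.04581% of that library too, the highest of the 4.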

How the results depend on the processing

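The counts of members passed between stages ranged over the alternatives from 12 to 16 lower and stayed at 3 higher in WT. In Null they ranged from 11 to 15 lower and 3 to 4 higher. The members tested numbered 18 with the 5 CPM filter and 27 without a filter, against 22 in the main fit, so these counts do not share a total. Leaving out single libraries gave 14 to 16 lower in WT and 13 to 14 in Null. Between genotypes, and in the difference of genotype effects, 0 members passed under every alternative run. Of 585 alternative values for the 43 member results past the threshold between stages or at an unadjusted p under 0.05 between genotypes, 565 kept direction and call, 20 lost the call and 0 changed direction, and 38 of the 43 results had no change. Over all 110 member results, 31 changed sign under at least 1 alternative, none of them past the threshold, of which 11 were between genotypes in GV oocytes (Timm23, Timm17a and Timm9 among them), 7 in eggs, 12 in the difference of genotype effects and 1 between Null stages (Tomm40). The losses were Timm50 and Timm29 in WT and Timm44, Timm23 and Timm8b in Null. Those not given with the results are Timm44 with RLE scaling (-0.35, adjusted p = 0.0512) and with only the groups compared (-0.37, 0.0747), and Timm23 with the 5 CPM filter (0.15, 0.118) and with only the groups compared (0.27, 0.0554). With Null MII replicate 4 left out beside Null GV replicates 2 and 3, Timm23 was 0.05 (0.757) and Timm8b -0.32 (0.183). The median change between Null stages was -0.90 over 27 members without a filter and -0.75 over 22 without Null MII replicate 4. It was -0.49 over the 18 members left by the 5 CPM filter, so these medians do not cover the same members. Causes were not tested.

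Import partners higher in WT eggs numbered 1 with the 5 CPM filter, and 1 to 2 when single libraries were left out. In Null eggs they numbered 0 without Null GV replicates 2 and 3, also without Null MII replicate 4, and without a filter on low counts 1 partner was higher in Null GV oocytes. Within WT alone the log2 differences of the ratios were 1.65 for Timm17a to Timm17b, -1.16 for Timm8a1 to Timm8b and -2.68 for Timm8a1 to Timm8a2, where the exact permutation test cannot go below p = 0.1. Leaving out single libraries gave 1.48 to 1.57, -1.28 to -1.06 and -2.77 to -2.48. With TMM-scaled totals the summed share of members was 0.0623% in WT GV, 0.0617% in Null GV, 0.0420% in WT MII and 0.0451% in Null MII libraries.

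Replicate numbers are shared by the groups. The deviations of same-numbered libraries had correlations from -0.15 to 0.17. Between genotypes in eggs all same-numbered pairs were positive (0.07, 0.06 and 0.17), and different-numbered pairs ran from -0.18 to 0.09. In each other comparison the same-numbered pairs had both signs. The design names only stage and genotype, so the main fit took no pairs. With a replicate block the members lower in eggs were 16 in WT and 13 in Null, where Timm44 lost its call (-0.35, adjusted p = 0.0702). The median between genotypes in eggs was 0.11 with the block and 0.19 in the main fit. Null MII replicate 4 has no partner and adds nothing to that fit. Members under about 1 CPM in WT eggs (Timm13, Timm10, Timm22 and Tomm7) rest on few counts, and fold changes between genotypes in eggs have wide intervals for them.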
